A study of Mus musculus with 2 samples.

Results

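Skeletal muscle that loses its nerve changes the expression of many genes besides those of the synapse, and 8 such denervation markers are described here on the arrays of *Gde5* skKO muscle: Ncam1, Runx1, Gadd45a, Hdac4, Hdac9, Dach2, Cdkn1a and Cdh15. They were selected on their known response to denervation together with the ratios of these same arrays, which were already known, so their values are a description and carry no test. Their members on the array are the probes whose listed gene name is one of the 8 or an older name of it. That rule gave 21 of 41174 probes that are not controls, and the 8 genes stand among 27600 gene names. For Dach2, 1 of its probes carries the clone name 9430028N04Rik.

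The samples were gastrocnemius (GAS) muscles of male mice of the C57BL/6 strain at 15 weeks of age on a normal diet, 5 of each genotype by the submitters' description. In *Gde5* skKO mice the floxed exon of *Gde5*, the phosphodiesterase that splits glycerophosphocholine, was removed by Cre under the human α-skeletal actin promoter, which is active in muscle fibres and not in the other cells of the tissue. WT is the name given to the controls, which in the study's physiological tests were floxed littermates without Cre, and no nerve was cut in either group on these arrays. On array 1 the RNA of *Gde5* skKO muscle carried Cy5 and WT RNA carried Cy3, and array 2 was the dye swap. The study describes array comparisons both after a glucose injection and with fasting, and which of these states the arrays hold is not stated. Whether RNA was pooled and whether both arrays held the same RNA is not stated either. The arrays were therefore read as 2 hybridizations on 1 slide with no test across mice, and their number limits the precision of every ratio.

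A motor nerve silences many genes along the whole muscle fibre through its electrical activity. When activity stops, the deacetylase Hdac4 and the transcriptional corepressor Dach2 act on opposite sides of the axis that leads to myogenin, which in turn drives receptor and atrophy genes. Ncam1, an adhesion molecule confined to the junction in innervated fibres, spreads over the fibre surface. Runx1 is a transcription factor that limits wasting in denervated fibres, and Gadd45a and Cdkn1a are growth arrest genes that rise in atrophying muscle. Cdh15, or M-cadherin, joins muscle precursor cells to fibres. Hdac9, also called MITR in its short form, is a repressor of MEF2 that is itself held up by the nerve. Nerve loss thus raises most of these genes but is known to lower Dach2 and Hdac9.

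Each ratio below is the log2 of *Gde5* skKO over WT after background subtraction and dye correction, with the swapped array turned, so that on either array a positive value is a higher signal in *Gde5* skKO muscle. The ± beside a single array's ratio is the error that the Feature Extraction software gives for a spot, and the ± beside a mean is the SD over the 2 arrays. A probe counted as measured when, on each array, the software marked 1 or both of its channels as well above background, and as higher or lower when the software's p-value was under 0.05 on both arrays with the same direction. That p-value speaks for spots and not for mice. In a homogenate of whole muscle, fewer cells of a type and less RNA per cell cannot be told apart.

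Of the 21 probes, 11 were measured, from 7 of the 8 genes, and 8 of them had signal well above background for both genotypes on each array. Probes of 2 genes, Cdkn1a and Ncam1, were higher in *Gde5* skKO muscle and none was lower. Over all 19094 measured probes the same rule called 1.49% higher and 1.58% lower. Among the member probes 6 had a ratio above 0 on both arrays, none was below 0 on both, and 5 had opposite directions. Ratios above 0 on both arrays were found for 29.3% of all measured probes, and opposite directions for 46.2%. The median ratio of the 11 probes was 0.39 on array 1 and 0.22 on array 2, against 0.02 and 0.01 over all measured probes. The median of their mean ratios was 0.18, and 0.07 with limma's normexp background model and loess normalization in place of the software's own correction. Since these genes were picked with such values in view, nothing is read from the difference.

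**Figure D1:**
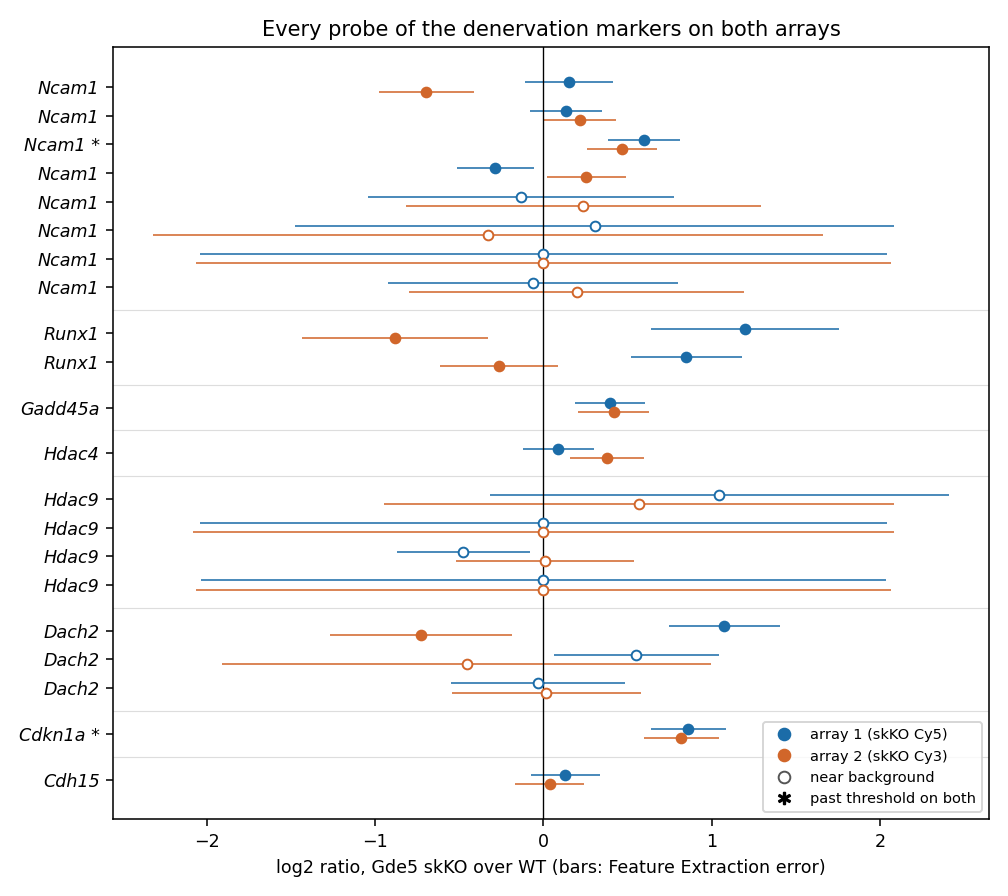
Log2 ratio of *Gde5* skKO over WT for each of the 21 probes on array 1 and array 2, with bars for the Feature Extraction error. Open circles mark the 10 probes near background; the probes marked with an asterisk, 1 of Ncam1 and that of Cdkn1a, lie to the right of 0 on both arrays, while those of Runx1 and Dach2 spread to both sides.

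**Figure D2:**
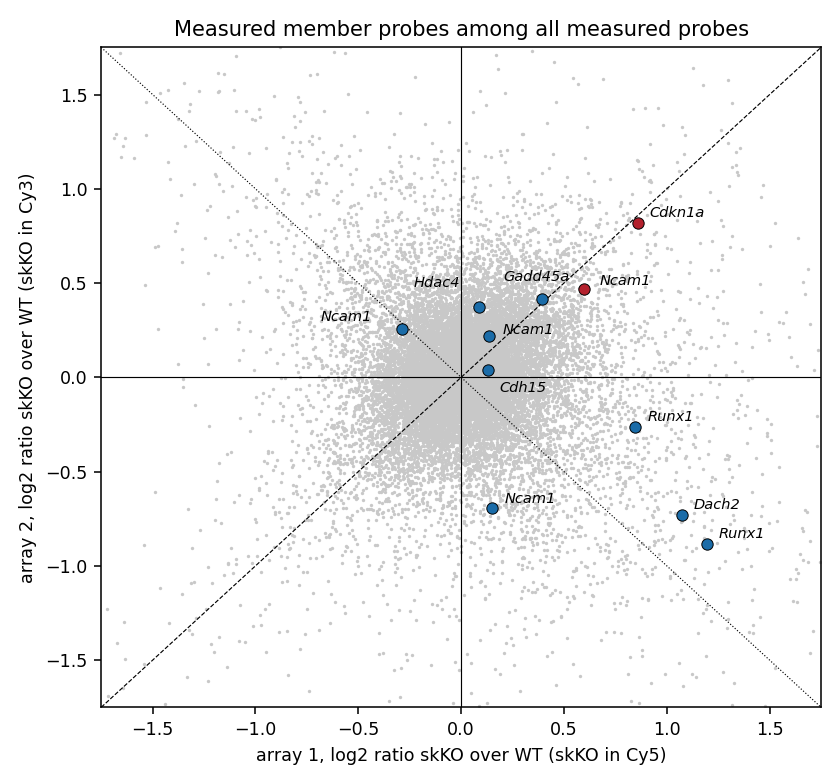
The ratio on array 1 (x axis) against the ratio on array 2 (y axis), both log2 *Gde5* skKO over WT, for measured probes in grey and the 11 measured member probes in colour, red where past the threshold on both arrays. A difference between genotypes lies along the dashed diagonal and one between dyes along the dotted diagonal; 232 of the 19094 probes lie outside the range drawn.

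Cdkn1a encodes p21, the inhibitor of cyclin-dependent kinases that p53 induces. Its probe, on the plus strand of chromosome 17 from 28828096 to 28828155 of the mm8 assembly, is printed in 10 spots on each array. On array 1 the *Gde5* skKO signals of the 10 spots ran from 442 to 574 with a median of 502, and the WT signals from 229 to 319 with a median of 277. On array 2 the *Gde5* skKO signals ran from 432 to 565 with a median of 504, and the WT signals from 251 to 344 with a median of 279. Over these spots of 1 probe the signals of the genotypes did not overlap on either array, in either dye. For how many other probes printed in 10 spots this holds was not counted, so nothing particular to Cdkn1a is read from it. The log2 ratios of single spots lay between 0.67 and 0.95 on array 1 and between 0.72 and 1.02 on array 2. Their means were 0.86 ± 0.07 and 0.82 ± 0.10 (SD over 10 spots of the same hybridization). The software's error, given for the other genes, averaged 0.22 on each array for these spots. All 20 spots were higher in *Gde5* skKO muscle. Among the 149 measured probes that are printed in 10 spots the share with every spot on both arrays higher was 12.8%. Each Cdkn1a spot was also past the threshold on its own, a stricter condition whose share over those 149 probes was not counted. The mean over both arrays was 0.84 ± 0.03, or 1.79-fold. With normexp and loess the mean was 0.51.

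**Figure D3:**
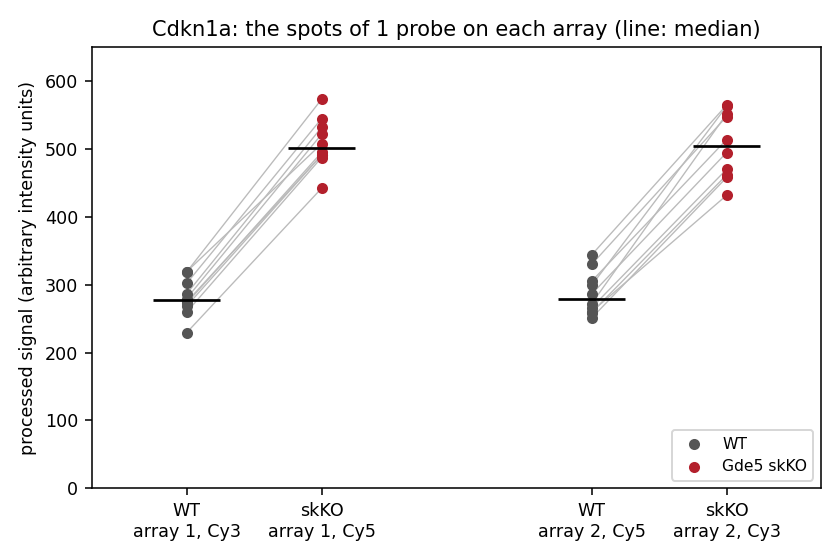
Processed signal, in intensity units, of each of the 10 Cdkn1a spots in the WT and *Gde5* skKO channels of each array; grey lines join the channels of a spot and black lines mark medians. The *Gde5* skKO spots lie at 432 or above and the WT spots at 344 or below, in both dye orientations.

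The bases before the 2 listed starts of Cdkn1a are shown because it was the measured member with the highest mean ratio and because p53 is its textbook regulator. They come from RefSeq on GRCm38.p6, a later assembly than that of the array annotation, and each holds the 250 bases upstream of a start on the plus strand. Capitals mark exact p53 half-sites in the first and an E-box, the CANNTG motif of myogenin and its relatives, in the second.
Cdkn1a, chr17:29090729-29090978: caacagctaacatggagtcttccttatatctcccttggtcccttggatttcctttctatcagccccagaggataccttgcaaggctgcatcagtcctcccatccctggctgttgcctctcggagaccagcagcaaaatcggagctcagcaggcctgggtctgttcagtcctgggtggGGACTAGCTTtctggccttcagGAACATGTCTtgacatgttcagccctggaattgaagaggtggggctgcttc
Cdkn1a, chr17:29093519-29093768: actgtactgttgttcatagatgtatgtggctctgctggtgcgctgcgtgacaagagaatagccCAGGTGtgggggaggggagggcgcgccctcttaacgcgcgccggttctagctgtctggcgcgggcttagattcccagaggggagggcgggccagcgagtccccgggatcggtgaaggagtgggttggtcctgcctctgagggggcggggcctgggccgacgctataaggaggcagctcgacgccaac

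The first window holds a pair of exact p53 half-sites 12 bases apart, the nearer of which ends 42 bases before the start. The pattern searched was RRRCWWGYYY, with R for A or G, W for A or T and Y for C or T. The bases directly after the nearer half-site, tgacatgttc, match it except in their first letter. They were not capitalized, since only exact matches were searched, so the spacing given is that of exact matches alone. Pairs of exact p53 half-sites at most 13 bases apart were found in 21 of 32851 windows of this length, or 0.0639%. The arrays do not measure binding, and a match of letters is no more than that. Windows were listed for 7 of the 8 genes, 11 in all, and that of Cdkn1a was the only one of the 11 with such a pair. An E-box stood in 7 of the 11, of 6 genes, against 66.2% of all windows. The RUNX motif TGTGGT, on either strand, stood in 2 of the 11, of Cdh15 and Dach2, against 14.0% of all windows.

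Gadd45a, a small stress protein of growth arrest and DNA repair, has 1 probe, on the minus strand of chromosome 6 from 66964960 to 66965019. Its signals were 847 in *Gde5* skKO and 645 in WT muscle on array 1, and 760 and 569 on array 2. The *Gde5* skKO channel was the higher one in both dyes. The ratios were 0.39 ± 0.21 and 0.42 ± 0.21, with a mean of 0.40 ± 0.02, or 0.27 with normexp and loess. The probe passed the threshold on array 2 alone and so was not counted as higher.

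Ncam1, the neural cell adhesion molecule, has 8 probes, of which 4 were measured, and these did not move together. The probe from 49269730 to 49269789 on the minus strand of chromosome 9 had signals of 841 in *Gde5* skKO and 556 in WT muscle on array 1, and of 936 and 677 on array 2. It was higher in *Gde5* skKO muscle on both arrays, with ratios of 0.60 ± 0.21 and 0.47 ± 0.21 and a mean of 0.53 ± 0.09. With normexp and loess the mean was 0.39. The call was lost with the p-value under 0.01, after Benjamini-Hochberg adjustment within each array, with limma's adjusted test and with the methods' t-test. It was kept in 12 of 17 alternatives, several of which reuse the software's p-value and so could hardly change it. Of the RefSeq transcripts, the array lists transcript variant 2 of Ncam1 for this probe, and not variant 1.

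The other 3 measured Ncam1 probes lie farther downstream. The probe from 49259540 to 49259599, which the array describes as the 3′ end of the NCAM-140 and NCAM-180 isoforms, had signals of 88.5 in *Gde5* skKO and 79.7 in WT muscle on array 1. On array 2 they were 67.4 and 109. The order of the genotypes turned with the dye swap, with ratios of 0.15 ± 0.26 and -0.70 ± 0.28, the second past the threshold on its own. The probe from 49257349 to 49257408, listed for transcript variant 1, gave ratios of -0.29 ± 0.23 and 0.26 ± 0.23. The last probe, from 49254445 to 49254504 and also listed for variant 1, gave 0.13 ± 0.21 and 0.22 ± 0.21. Neither of these passed the threshold on either array. As a mean over the 4 measured probes the ratio of Ncam1 was 0.11. Which isoforms differ was not tested, since a probe's transcripts are known only from the array's list and probes of 1 gene are not replicates.

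The remaining Ncam1 probes were near background. One of them, from 49298423 to 49298482 and listed for both variants, is printed in 10 spots, of which 9 on each array carried no outlier mark. Its spot ratios ran from -1.12 to 1.16 on array 1 and from -1.50 to 1.24 on array 2, and no *Gde5* skKO spot was well above background. The probe for exon pi, a short alternative exon of an immunoglobulin domain, and the probes farther upstream gave signals of at most 17.1 in *Gde5* skKO muscle. These probes therefore give no ratio to set beside that of the probe for variant 2.

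**Figure D4:**
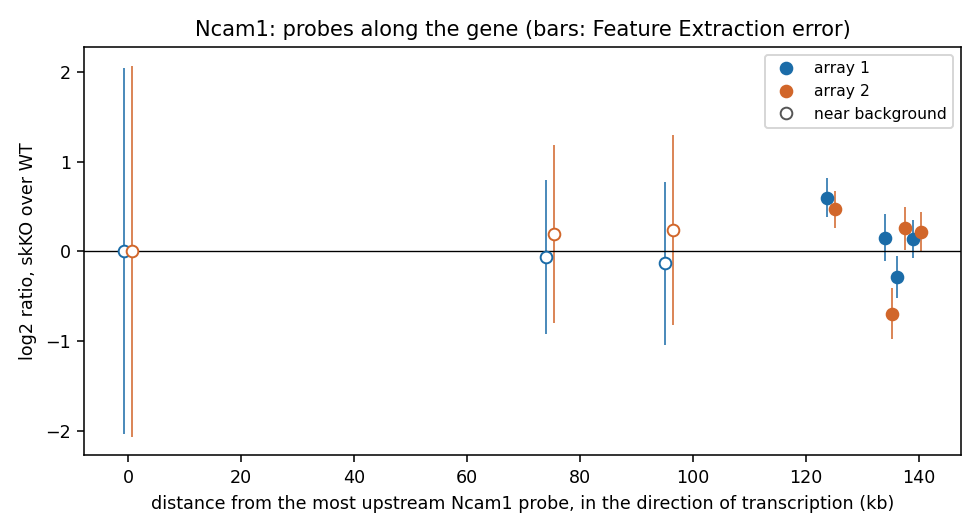
Log2 ratio of *Gde5* skKO over WT of the 7 Ncam1 probes with a listed position, against their distance in kb from the most upstream probe; bars are the Feature Extraction error and open circles are probes near background. The probe at 124 kb is above 0 on both arrays, and of the 3 probes beyond 134 kb the last, at 140 kb, is above 0 on both arrays while the other two change side between the arrays.

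Cdh15, the cadherin of muscle precursor cells, has 1 probe, on chromosome 8 from 125753221 to 125753280. Its signals were 877 in *Gde5* skKO and 801 in WT muscle on array 1, and 911 and 888 on array 2. The ratios were 0.13 ± 0.21 and 0.04 ± 0.20, both smaller than the software's error.

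Runx1 has 2 probes on the minus strand of chromosome 16. The probe from 92493027 to 92493086 had signals of 56.6 in *Gde5* skKO and 24.7 in WT muscle on array 1, and of 34.1 and 62.8 on array 2. The second probe, whose listed span from 92502617 to 92533069 crosses an intron, had 76.5 and 42.5 on array 1, and 53.9 and 64.8 on array 2. In both probes the channel labelled with Cy5 was the higher one on both arrays, so the direction of the genotypes turned with the swap. The ratios of the first were 1.20 ± 0.56 and -0.88 ± 0.55, and those of the second 0.85 ± 0.33 and -0.26 ± 0.35. On array 1 alone both would have counted as higher. WT signal was not well above background on array 1 for either, so there each passed the filter through the channel in which it was high.

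Dach2, the dachshund family corepressor, has 3 probes on chromosome X, of which 1 was measured. That probe, from 109952435 to 109952494, gave signals of 85.2 in *Gde5* skKO and 40.5 in WT muscle on array 1, and of 46.8 and 77.5 on array 2. Its ratios of 1.07 ± 0.33 and -0.73 ± 0.54 turned with the dyes as those of Runx1 did. The probe named 9430028N04Rik, from 109951848 to 109951907, gave 0.55 ± 0.49 and -0.46 ± 1.45 near background, and the third, from 109950203 to 109950262, gave -0.03 ± 0.52 and 0.02 ± 0.56.

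The 3 measured probes of Runx1 and Dach2 belong to the 2148 measured probes that lacked such signal in 1 or more of the 4 channels. Among those, Cy5 was the higher channel on both arrays in 48.7%, against 20.5% of the 16946 probes with signal in all 4. Their SD over the 2 arrays had a median of 0.73, against 0.14. The part of the dyes in the ratios of Runx1 and Dach2 was not tested, and a difference between the genotypes was not detectable for these genes at their signal.

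Hdac4, a class IIa deacetylase that moves into the nucleus when activity falls, has 1 probe, on the minus strand of chromosome 1 from 93763383 to 93763442. Its signals were 344 in *Gde5* skKO and 323 in WT muscle on array 1, and 348 and 268 on array 2. The *Gde5* skKO channel was the higher one on both arrays, with ratios of 0.09 ± 0.21 and 0.37 ± 0.22, and neither passed the threshold. The activity of Hdac4 depends on its place in the cell, which the arrays do not show.

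None of the 4 probes of Hdac9, on the minus strand of chromosome 12, was measured. For 2 of them the software returned a ratio of exactly 0 on both arrays, with errors of 2.04 to 2.08. The probe from 34974639 to 34974698 gave 1.04 ± 1.36 and 0.57 ± 1.51, and the probe from 34956889 to 34956948 gave -0.48 ± 0.40 and 0.01 ± 0.53. No ratio of Hdac9 exceeded its error on both arrays.

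Genes that work with the members were followed through lists written from general knowledge, with earlier results of these arrays known, so their counts are a description as well. Of the receptor and synapse genes, which respond to denervation at and away from the junction, Chrnb1, Chrnd, Chrng, Colq and Musk had no measured probe. The rest of that list had 3 of 10 measured probes higher and none lower, with a median mean ratio of 0.19. The 3 were probes of Chrna1, the α subunit of the acetylcholine receptor, at 0.83 ± 0.02 and 0.76 ± 0.08, and of Ache, acetylcholinesterase, at 1.13 ± 0.41, or 0.56 with normexp and loess. Other genes that respond to denervation had 6 of 18 higher and none lower, with a median of 0.18. They were the embryonic myosin Myh3 with probes at 1.88 ± 0.35 and 1.72 ± 0.32, the stretch-responsive Ankrd1 at 1.02 ± 0.49, the metallothioneins Mt2 at 0.87 ± 0.17 and Mt1 at 0.50 ± 0.06, and sarcolipin, Sln, at 0.84 ± 0.22. The other measured Mt1 probe, at 0.09 ± 0.04, was neither higher nor lower. With normexp and loess the Myh3 probes were at 0.71 and 0.86, and the medians of both lists were 0.10 and 0.06. Over all measured probes the median of the mean ratio was 0.02, with 1.49% higher and 1.58% lower.

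The p53, growth arrest and DNA damage list, to which Cdkn1a and Gadd45a are related, had 1 of 23 measured probes higher and 2 lower, with a median of 0.07, or 0.04 with normexp and loess. Cdkn1c, or p57, of the same inhibitor family as Cdkn1a, was higher at 0.42 ± 0.0049. Gadd45g, the family member of Gadd45a, was lower at -0.79 ± 0.27, with signals of 26379 in *Gde5* skKO and 52152 in WT muscle on array 1 and of 30446 and 46002 on array 2. One probe of Sesn2, a sestrin of the stress response, was lower at -0.53 ± 0.01, or -0.29 with normexp and loess. The other measured Sesn2 probe did not go with it, at 0.38 on array 1 and -0.02 on array 2, and was neither higher nor lower. Gadd45a and Gadd45g thus had ratios of opposite sign on both arrays.

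The partners of Hdac4 and Dach2 on the way through MEF2 and myogenin to the atrophy ligases had none of 26 measured probes higher and 1 lower, with a median of 0.00. The lower one was a probe of Camk2a, a calcium-dependent kinase, at -0.57 ± 0.05. The other measured Camk2a probe was at -0.28 ± 0.12, or -0.06 with normexp and loess, and was not past the threshold on both arrays. Partners of Ncam1 and of cadherins, the polysialic acid synthases and catenins among them, had none of 10 higher or lower and a median of -0.06. The partners of Runx1 had 1 of 4 measured probes lower and a median of -0.45. The lower one was a probe of Cbfb, the subunit that RUNX factors bind, at -0.58 ± 0.09, or -0.36 with normexp and loess. The other, brighter Cbfb probe was at -0.48 ± 0.21, or -0.49 with normexp and loess, and was not past the threshold on both arrays.

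**Figure D5:**
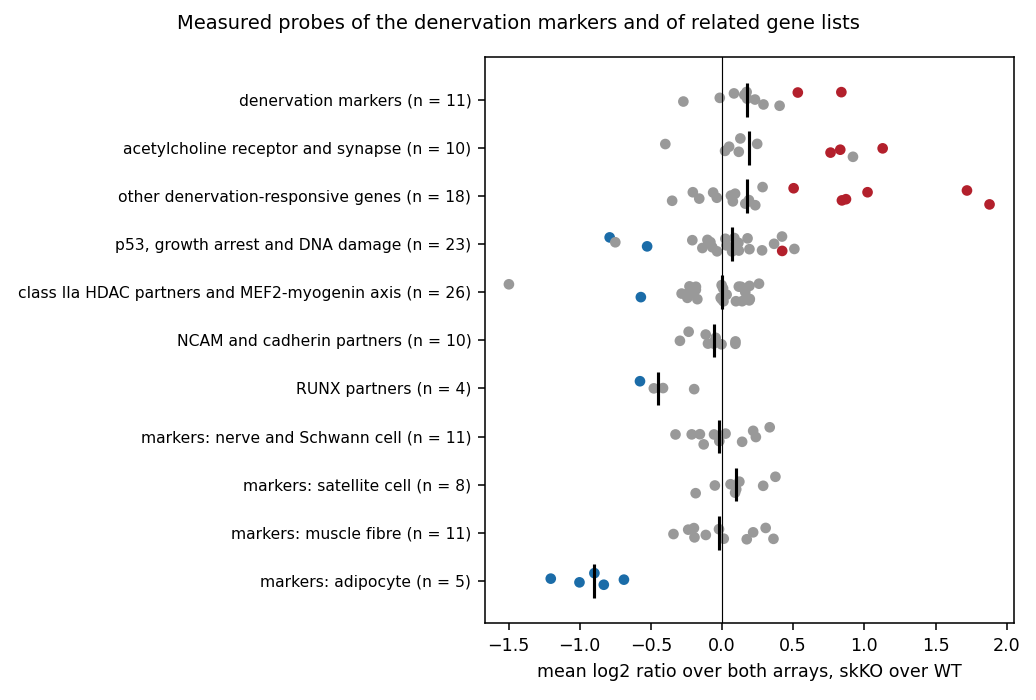
Mean log2 ratio of *Gde5* skKO over WT over both arrays for each measured probe of the 8 genes and of the lists named beside the axis, with n the number of measured probes. Endothelial, leukocyte and fibroblast markers are not drawn. Red points were higher and blue points lower past the threshold on both arrays, all other points are grey, and black lines mark medians. The medians of the denervation markers, the receptor genes and the other denervation-responsive genes lie at 0.18, 0.19 and 0.18, that of the p53 list at 0.07 and that of the adipocyte markers at -0.90.

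Several members are also used by cells other than fibres, Ncam1 by nerve and Schwann cells and Cdh15 and Ncam1 by satellite cells. The markers of nerve and Schwann cells had none of 11 measured probes higher or lower, and their summed signal was 7145 to 7659 in *Gde5* skKO and 7803 to 8032 in WT muscle. Satellite cell markers had none of 8 higher or lower, with sums of 1548 to 1958 and 1555 to 1746. Muscle fibre markers, which stand for the labelled tissue, had 11 of 12 probes measured and none higher or lower. Adipocyte markers were the list that moved, with 5 of 5 measured probes of Adipoq, Cfd, Plin1 and Retn lower, a median of -0.90 and sums of 3802 to 3986 in *Gde5* skKO against 7196 to 7377 in WT muscle. With normexp and loess the median of these 5 probes was -0.36. Of the endothelial markers 1 of 6 was higher, the receptor Kdr at 0.42 ± 0.02, and none of 6 leukocyte and none of 7 fibroblast probes was higher or lower. The part of these cells in the ratios of Cdkn1a and Ncam1 was not tested.

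The label of the *Gde5* skKO channel was checked by *Gde5* itself, listed under the older name Prei4 of Gpcpd1. Its 4 probes had mean ratios from -3.18 to -0.26, and 3 of them were lower past the threshold on both arrays.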

How the data were processed

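The members and the gene lists were chosen with earlier results of these data known. The authors used Feature Extraction 9.5.3.1, whose deposited output lists, for every spot, the log10 ratio (Cy5 over Cy3), its p-value and both channels' intensity. The log10 ratio also stands in the deposited series table. It was converted to log2, given the sign of *Gde5* skKO over WT, and its mean taken where a probe has several spots. Spots with feature outlier marks, 164 and 200 of 43379 on the arrays, and 11 and 0 spots with a local background over 2 times their signal were left out. Well above background were 53.2% (*Gde5* skKO) and 45.6% (WT) of spots on array 1, and 44.6% and 47.4% on array 2. For probes with several spots the median p-value was used, and at least 50% of spots had to be well above background. Named in the text were all 8 genes with every probe, Gpcpd1, and the list genes past the threshold. Probe positions follow the array annotation, mm8. Alternatives used limma 3.58.1 under R 4.3.3, and the rest Python 3.11.15 with pandas 2.3.3 and scipy 1.17.1. Calling by the p-value rule and by limma's test was run on ratios simulated with the software's own errors. The p-values for the rule came from those same errors. Reading, naming, filtering and normalization were not tested in this way.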

Additional observations from a re-analysis of the deposited data

How the results depend on the processing

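Under 17 alternatives Cdkn1a was counted as higher in 15 and the variant 2 probe of Ncam1 in 12, and neither changed sign in any. Several of these reuse the software's p-value, namely those that replace or centre only the ratio, filter probes or leave out 1 array. There a call already made could change only with the sign or by loss of the probe, so these counts overstate how far the calls were tried. The count of member probes higher, 2, was 1 with the p-value under 0.01 and 1 after Benjamini-Hochberg adjustment within each array, in both cases Cdkn1a. With limma's moderated test it was 3 unadjusted, with Gadd45a, and 0 adjusted, and with the methods' t-test on log2 channel signals 1 unadjusted, Cdkn1a, and 0 adjusted. From 1 array alone it was 3 to 5 higher and 0 to 1 lower, where array 1 adds Runx1 and Dach2, and array 2 adds Gadd45a as higher and an Ncam1 probe as lower. Over all measured probes the counts higher and lower were 285 and 301. They were 129 and 155 with the p-value under 0.01, 62 and 88 after adjustment, 779 and 773 with limma unadjusted, 43 and 79 with limma adjusted, 853 and 751 with the t-test unadjusted and 0 and 0 with it adjusted. From 1 array alone they ran from 1369 to 1505 higher and from 1004 to 1314 lower. The median ratio of the measured member probes, 0.18, was 0.22 to 0.39 from 1 array alone and 0.07 with normexp and loess. Of the 20 list and marker probes higher or lower, 8 had a mean over 1.5 times smaller with normexp and loess, and none turned sign. Keeping spots beside debris was chosen after seeing the data and moved no member count. Each ratio already pairs the genotypes within an array, so limma's test on the ratios is the paired one and the t-test on channel signals the unpaired one, and a block for slide or scan could not be fitted with 1 of each. Signal over background limits Runx1, Dach2 and Hdac9.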
